A study of Homo sapiens with 16 samples.

Results

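The 10 genes CXCL1, CXCL2, CXCL3, CXCL5, CXCL6, CXCL8, CCL20, IL6, IL11 and LIF were followed across lung cancer cells stimulated with hepatocyte growth factor (HGF), the ligand of the receptor tyrosine kinase MET. These genes encode neutrophil chemokines, the CC chemokine CCL20 and cytokines of the IL6 type. They were taken by symbol from a table of 42351 genes, by a rule that itself uses no measured value. The 10 genes and the gene lists used below were, however, chosen with earlier results of these data known. Their shares beside those of all genes are therefore descriptions. The libraries hold polyadenylated RNA of cells expressing wt MET or MET∆14, a receptor that lacks exon 14. In the labels the wt MET cells are A549, a lung adenocarcinoma line. The study's text denotes EKVX, another lung adenocarcinoma line, as its WT cells and does not name A549. For the transcriptome that text says only wt MET, so the labels and the text may differ on this line. The MET∆14 cells are NCI-H596, a lung adenosquamous carcinoma line. Per the labels every group had been deprived of serum for 12 h before HGF (the study's methods state a longer deprivation for HGF treatments in general), and was sampled without HGF (0 h) or 3, 6 or 12 h after its addition, in 2 biological replicates per group and 16 libraries in all. Each form of MET is represented by 1 line, so the form of the receptor and everything else that differs between the lines cannot be told apart. No untreated cells were sampled after 0 h, so the effect of HGF and that of time in culture cannot be told apart either. The dose of HGF for these libraries is not given in the labels, and libraries with amplified wt MET were not analysed here.

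Neutrophils are drawn into tissue by small CXC chemokines that carry a glutamate-leucine-arginine motif (CXCL1, CXCL2, CXCL3, CXCL5, CXCL6 and CXCL8, also called interleukin 8) and act on the receptors CXCR1 and CXCR2. CCL20 is a CC chemokine that attracts CCR6-bearing lymphocytes and immature dendritic cells. IL6, IL11 and LIF are cytokines that signal through the shared receptor chain gp130, encoded by IL6ST, together with IL6R, IL11RA or LIFR, and chiefly activate STAT3. Carcinoma cells can make several of them, and NF-kappaB and AP-1 are well-known regulators of their promoters.

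The 6 CXC chemokine genes lie on chromosome 4, and some of them share sequence before their start sites, shown here because CXCL5 and CXCL6, which are alike there, were counted in opposite lines. RefSeq promoter windows (build GRCh38.p14, 250 bases before to 50 after the start) were matched by symbol for 9 of the 10 genes, all but LIF. In the stretches printed, from 140 to 16 bases before the start and read along the gene's strand, capitals mark letters that match GGNNTTTCC, written here as the NF-kappaB type, or TGANTCA, the AP-1 type. Both strands were searched, and the motifs do not overlap in these windows. The CXCL8 stretch is chr4:73740429-73740553 on the plus strand, that of CXCL1 chr4:73869253-73869377 on the plus strand, that of CXCL2 chr4:74099211-74099335 on the minus strand, that of CXCL5 chr4:73998693-73998817 on the minus strand and that of CXCL6 chr4:73836538-73836662 on the plus strand. The others are chr2:227813702-227813826 on the plus strand (CCL20), chr7:22727060-22727184 on the plus strand (IL6) and chr19:55370479-55370603 on the minus strand (IL11).
CXCL8: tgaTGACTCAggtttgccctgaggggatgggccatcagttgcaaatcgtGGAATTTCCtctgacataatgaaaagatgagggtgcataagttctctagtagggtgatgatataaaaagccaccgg
CXCL1: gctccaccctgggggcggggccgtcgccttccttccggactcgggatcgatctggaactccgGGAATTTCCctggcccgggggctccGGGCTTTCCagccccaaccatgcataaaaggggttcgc
CXCL2: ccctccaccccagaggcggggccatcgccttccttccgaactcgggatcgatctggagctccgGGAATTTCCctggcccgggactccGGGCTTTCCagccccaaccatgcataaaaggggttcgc
CXCL5: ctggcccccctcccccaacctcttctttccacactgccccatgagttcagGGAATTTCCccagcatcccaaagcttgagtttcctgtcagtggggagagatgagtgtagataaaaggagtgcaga
CXCL6: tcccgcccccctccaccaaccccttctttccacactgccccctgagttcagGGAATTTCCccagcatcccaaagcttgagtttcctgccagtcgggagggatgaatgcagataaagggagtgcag
CCL20: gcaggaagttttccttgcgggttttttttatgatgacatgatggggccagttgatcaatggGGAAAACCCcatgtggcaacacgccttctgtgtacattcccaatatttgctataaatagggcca
IL6: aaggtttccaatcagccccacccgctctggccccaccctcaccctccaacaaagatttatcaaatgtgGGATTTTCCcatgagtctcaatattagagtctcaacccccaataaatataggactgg
IL11: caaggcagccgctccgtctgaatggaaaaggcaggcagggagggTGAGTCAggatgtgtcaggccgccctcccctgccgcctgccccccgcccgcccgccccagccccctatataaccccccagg

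The NF-kappaB type letters were present in 8 of the 9 windows, all but IL11, against 6.26% of all 35116 promoters of the same length. CXCL1 and CXCL2 held 2 such matches each, as did CXCL3, which has them 78 and 53 bases before its start, like CXCL1. The CCL20 match is on the opposite strand. The AP-1 type letters were present in 2 windows, CXCL8 and IL11, against 7.71% of all promoters, and CXCL8 was the member with both (0.521% of all promoters). CXCL5 and CXCL6, whose windows were 83.1% identical, carried the same NF-kappaB type match 90 and 89 bases before the start, as the map of matches shows. The CXCL1 window was 82.5% identical to that of CXCL3 and 71.3% to that of CXCL2. CXCL8 stood apart, at 36.5% to 40.5% identity with the other CXC windows, no more than between CXCL8 and CCL20 (42.2%). These matches are letters in a window and were not tested for binding.

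**Figure D1:**
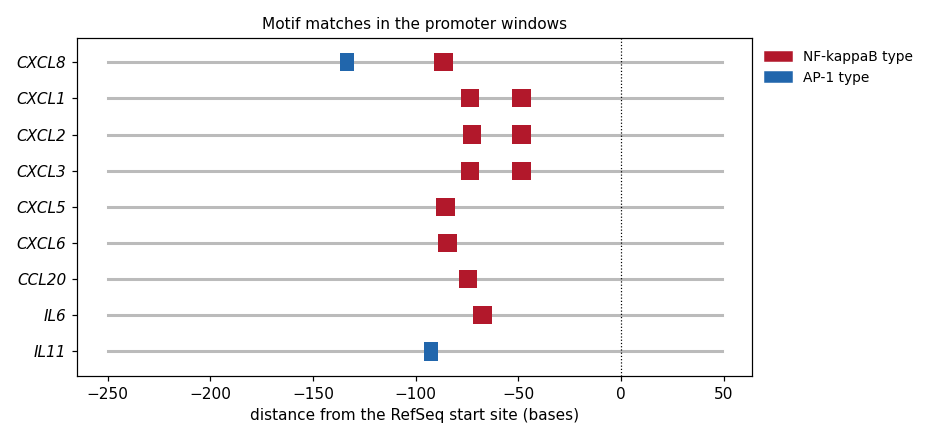
Matches to the NF-kappaB type motif (red) and the AP-1 type motif (blue) in the RefSeq promoter windows of 9 genes, by distance from the start site in bases (0 is the start, dotted). CXCL1, CXCL2 and CXCL3 hold 2 red blocks each, IL11 holds a blue block only, and CXCL8 holds both colours.

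Values are counts per gene as deposited, and CPM are these counts scaled to a common library size, with TMM, a normalization that evens out differences in library composition. Total counts ranged from 10158590 to 23909304 (median 15811012). All 10 genes passed the filter on low counts, which kept 15067 genes. A gene is called where edgeR's quasi-likelihood test, adjusted by Benjamini and Hochberg over all genes tested, gave an adjusted p under 0.05. Fold changes are on the log2 scale with their standard error (SE), and the 3 times of a line share its 0 h libraries. The MET∆14 12 h libraries stood apart from each other more than any other pair (chi-square per degree of freedom 34.1, against 2.75 to 9.80 in the other groups), and calls of the 10 genes with MET∆14 at 12 h are therefore also given without each of them. Over all genes tested, 2629 were called at 3 h with wt MET, and 1363 to 4141 with 1 library left out. The epithelial keratins KRT8 and KRT18 were expressed in every library (lowest count 5496), whereas EPCAM was low with wt MET (13 to 42 counts). CDKN2A had 0 counts in all wt MET libraries. Of 7 blood cell markers, 6 had at most 2 counts in any library, PTPRC included, and CD14 had 98 to 438 counts with MET∆14 and at most 6 with wt MET. COL3A1, a fibrillar collagen used as a fibroblast marker, had 2273 to 7657 counts with MET∆14 and at most 6 with wt MET. COL1A1, the other fibroblast marker, had 172 to 671 counts with MET∆14 and 149 to 291 with wt MET. Of the endothelial markers, PECAM1 had 7 to 37 counts with MET∆14 and at most 1 with wt MET. VWF had at most 4 counts with MET∆14 and 5 to 24 with wt MET. Such markers were thus not absent from either line, and their part in the line differences was not tested.

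Without HGF the lines already differed in these transcripts. Levels of CXCL5, IL11 and LIF were higher with wt MET, and those of CXCL1, CXCL2, CXCL6 and IL6 were higher with MET∆14. Of the 10 genes, 4 were higher with MET∆14 and 3 were lower. Of all genes tested, 40.6% were higher and 39.6% lower in this comparison, so a call between these lines is common. CXCL5, CXCL6 and IL6 passed the filter only through the line where they were high. Their calls between the lines are therefore no independent support. CXCL5 was read 408 and 405 times in the wt MET libraries at 0 h, and 0 times in all 8 MET∆14 libraries. Against the limit that a count of 0 allows (3 counts over the group, counting error only), CXCL5 was at least 344-fold higher with wt MET at 0 h and at least 252-fold at any time. Of its exon bases, 17.3% overlap an unnamed gene on the other strand and strand use is not stated, so a part of the CXCL5 counts could belong to that gene. CXCL6 had the reverse pattern, with 0 counts in all 8 wt MET libraries and 21 to 74 in those with MET∆14, at least 21.3-fold higher at 0 h.

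CXCL1 had 12 and 10 counts with wt MET and 299 and 329 with MET∆14 at 0 h, a log2 difference of 4.49 (SE 0.39, adjusted p = 5.37e-08). CXCL2 differed less, with 87 and 54 against 129 and 230 counts (log2 difference 0.98, SE 0.23, adjusted p = 0.00105), and CXCL3 was at 17 and 15 against 19 and 24 counts (0.08, 95% interval -0.63 to 0.79). CXCL8 also missed the threshold, at 9.19 and 13.6 CPM with wt MET and 15.8 and 16.8 with MET∆14 (log2 difference 0.51, adjusted p = 0.0933). It passed under DESeq2 (0.037) and, among others, without the wt MET 0 h replicate 2 (0.0384). CXCL1, CXCL2 and CXCL3 share stretches of 50 bases with each other (5.33%, 10.1% and 5.26% of their stretches), so reads could be split between them.

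IL6 showed 0 and 2 counts with wt MET and 110 and 159 with MET∆14 at 0 h, a ratio of 106 with a counting interval of 29.1 to 880. No wt MET library at any time had more than 4 IL6 counts. IL11 lay at the opposite end, at 284 and 281 CPM with wt MET and 2.48 and 3.33 with MET∆14 (log2 difference -6.58, SE 0.18, adjusted p = 1.22e-13). LIF followed IL11, at 158 and 183 CPM against 4.56 and 4.67 (log2 difference -5.20, SE 0.14, adjusted p = 1.1e-13). The groups did not overlap for either gene, and 7 to 8 members were called at 0 h whichever library was left out.

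**Figure D2:**
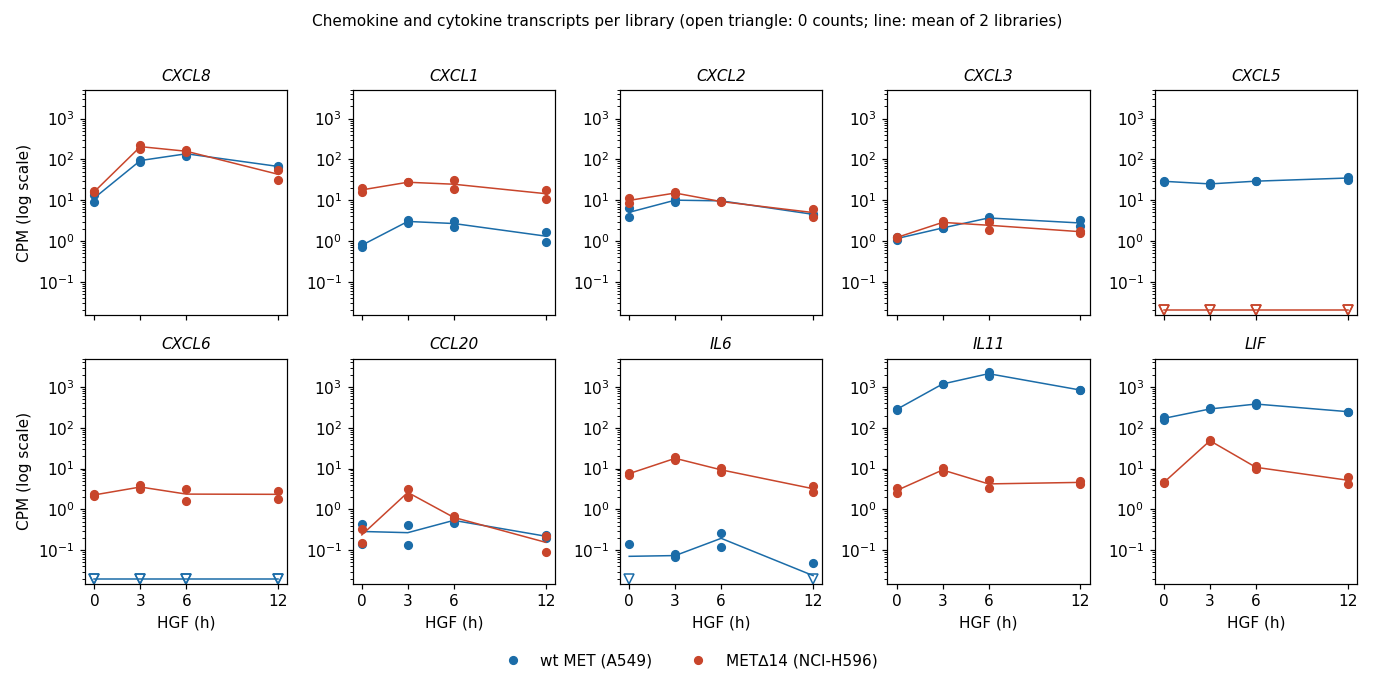
CPM on a log scale against hours of HGF for each gene, 1 point per library and a line through the mean of 2 libraries (blue, wt MET; red, MET∆14; open triangles, 0 counts). IL11 reaches 1913 and 2337 CPM with wt MET at 6 h, LIF peaks at 3 h with MET∆14, and CXCL5 and CXCL6 are each at 0 in 1 line.

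After HGF, CXCL2, CXCL8, IL11 and LIF were called higher in both lines at 3 h. With wt MET, 5 of the 10 genes rose and 0 fell at 3 h, against 10.3% of all genes higher and 7.16% lower. At 6 h 6 rose and 0 fell (16.4% and 17.8% of all genes), and at 12 h 4 rose and 0 fell (16.9% and 18.2%). With MET∆14, 7 rose and 0 fell at 3 h (15.5% and 16.1% of all genes), 3 rose and 0 fell at 6 h (21.6% and 22.5%), and 2 rose and 2 fell at 12 h (18.3% and 20.1%). The median log2 change at 3 h was 0.92 with wt MET, over the 8 genes with more than 3 counts in a library of either time, and 1.24 with MET∆14, over 9, beside -0.04 and -0.05 over all genes tested. Where line and time were fitted as separate terms without an interaction, 8 of the 10 genes had a time effect (30.6% of all genes), all but CXCL5 and CXCL6.

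CXCL8, the principal human neutrophil chemokine, rose in both lines at every time. With wt MET it went from 9.19 and 13.6 CPM to 99.4 and 88.6 at 3 h, 151 and 125 at 6 h and 65.3 and 69.1 at 12 h. With MET∆14 it went from 15.8 and 16.8 CPM to 231 and 180.5 at 3 h, 151 and 166 at 6 h and 31.0 and 55.2 at 12 h. Every library with HGF lay above both 0 h libraries of its line. The log2 change at 3 h was 3.04 (SE 0.25, adjusted p = 3.38e-06) with wt MET and 3.66 (SE 0.24, adjusted p = 1.54e-07) with MET∆14. The peak mean came at 6 h with wt MET (3.59, SE 0.25) and at 3 h with MET∆14. At 12 h the change was still 2.55 (SE 0.25) with wt MET and had come down to 1.38 (SE 0.24) with MET∆14, where it was 1.76 and 0.91 without the 12 h replicate 1 or 2.

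CXCL1, which acts mainly on CXCR2, rose with wt MET from 12 and 10 counts to 48 and 35 at 3 h (log2 change 1.93, SE 0.50, adjusted p = 0.0153) and to 52 and 33 at 6 h (1.77, SE 0.50, adjusted p = 0.014). These calls rest on few counts. At 3 h CXCL1 lost its call without either wt MET 0 h library or the 3 h replicate 1 (adjusted p = 0.0827 to 0.0945), and at 6 h without either 0 h library or the 6 h replicate 1 (0.0696 to 0.103). In MET∆14 cells CXCL1 stood at 19.5 and 16.3 CPM at 0 h, 27.9 and 27.2 at 3 h, 18.4 and 30.9 at 6 h and 10.9 and 18.0 at 12 h. The CXCL1 level at 3 h lay above 0 h in both libraries, but its log2 change of 0.63 (SE 0.24) missed the threshold (adjusted p = 0.0603). It passed without filter (0.00031) and without any 1 of the MET∆14 6 h or 12 h libraries (0.0199 to 0.0333).

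CXCL2, a close relative of CXCL1, rose with wt MET from 6.29 and 3.82 CPM to 9.15 and 10.9 at 3 h (log2 change 0.98, SE 0.23, adjusted p = 0.00866) and to 9.74 and 9.56 at 6 h (0.93, adjusted p = 0.00603). The CXCL2 calls were lost without the wt MET 0 h replicate 2 (0.0815 and 0.0722) and, at 3 h, without the wt MET 3 h replicate 2 (0.0776). With MET∆14, CXCL2 was at 8.41 and 11.4 CPM, then 15.8 and 14.2, 8.83 and 9.68, and 3.94 and 6.03 at 0, 3, 6 and 12 h. Its rise at 3 h was 0.58 on the log2 scale (SE 0.20, adjusted p = 0.0405), and 11 of 16 fits that left out 1 library lost it (adjusted p = 0.0506 to 0.30), as did DESeq2 (0.0567). At 12 h CXCL2 fell by 1.04 on the log2 scale (SE 0.23, adjusted p = 0.00237), and by 0.73 and 1.36 without the 12 h replicate 1 or 2.

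CXCL3 was low in every library (15 to 70 counts). It rose with wt MET at 6 h (log2 change 1.67, SE 0.29, adjusted p = 0.00049) and 12 h (1.28, SE 0.30, adjusted p = 0.00381), where the call was lost without the 12 h replicate 1 (log2 change 0.98, adjusted p = 0.0694). The CXCL3 change with wt MET at 3 h was 0.86 (adjusted p = 0.0773). With MET∆14, CXCL3 rose at 3 h (1.22, SE 0.29, adjusted p = 0.00459) and at 6 h (1.04, SE 0.29, adjusted p = 0.00811). The 6 h call was lost without the MET∆14 0 h replicate 2 (adjusted p = 0.0619) or the 6 h replicate 2 (log2 change 0.61, adjusted p = 0.201).

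CXCL5 and CXCL6 were not called against 0 h at any time. CXCL5 with wt MET stood at 29.5 and 28.6, 26.4 and 23.8, 29.4 and 29.2, and 32.0 and 38.0 CPM at 0, 3, 6 and 12 h, with log2 changes of -0.21, 0.01 and 0.26 (95% interval at 6 h -0.26 to 0.28). The 12 h change of CXCL5 had an interval of -0.004 to 0.53, and passed where wt MET was fitted alone (0.28, adjusted p = 0.0321). CXCL6 with MET∆14 stood at 2.15 and 2.38, 3.18 and 3.91, 1.57 and 3.17, and 1.81 and 2.87 CPM (log2 change at 3 h 0.65, 95% interval -0.15 to 1.44). For both genes the gap between the lines at 0 h exceeded every change with HGF in the line that made the transcript.

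CCL20 was near the detection limit except at 1 point. With MET∆14 it had 5 and 3 counts at 0 h, 39 and 36 at 3 h, 9 and 14 at 6 h and 4 and 1 at 12 h. The log2 change of CCL20 at 3 h was 3.45 (SE 0.51, adjusted p = 0.000101). Only that group had at least 10 counts in both libraries, so CCL20 passed the filter through the group where it was high. This call and the CCL20 results below, which rest on the same group, are therefore no independent support. With wt MET, CCL20 stayed between 2 and 10 counts at all times.

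**Figure D3:**
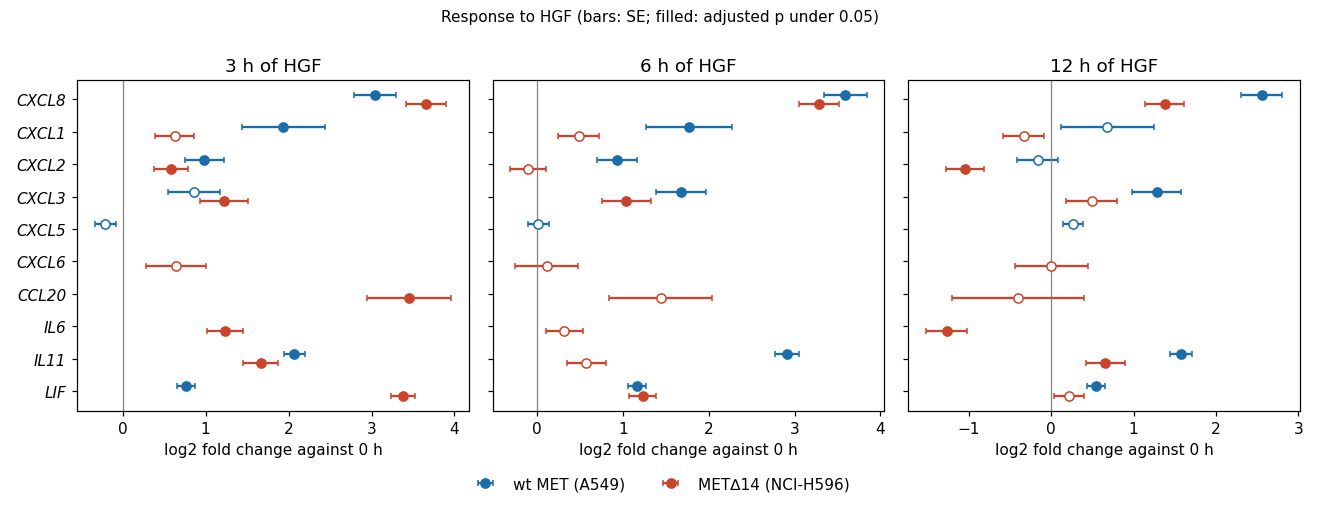
Log2 fold change against 0 h of the same line at 3, 6 and 12 h of HGF (blue, wt MET; red, MET∆14), with SE bars and filled points for an adjusted p under 0.05; lines in which a gene had at most 10 counts in every library are left out. CXCL8 is filled at all 6 positions, and with MET∆14 CXCL2 and IL6 lie left of 0 at 12 h.

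Measured per length (RPKM, which is CPM divided by the length in kilobases of the gene's MANE Select transcript), the 6 CXC ligands shifted towards CXCL8 in both lines. Their summed level with wt MET was 25.2 ± 0.117 RPKM (SD, n = 2) at 0 h, 81.1 ± 4.49 at 3 h, 110.2 ± 11.8 at 6 h and 63.0 ± 3.10 at 12 h. With MET∆14 it was 36.7 ± 0.529, 167 ± 23.4, 129.7 ± 16.2 and 46.1 ± 16.3 RPKM. The CXCL8 share of that sum was 27.7% ± 7.76 at 0 h and 70.6% ± 1.85 at 3 h with wt MET, and 27.0% ± 0.801 and 74.8% ± 2.62 with MET∆14. The companion ligands differed, with CXCL5 at 47.4% ± 0.801 of the sum with wt MET at 0 h and CXCL1 at 41.7% ± 5.77 with MET∆14. At 12 h the CXCL8 share was 64.9% ± 0.609 with wt MET and 56.4% ± 2.59 with MET∆14. These shares are descriptions without a test, and the counts of CXCL1, CXCL2 and CXCL3 behind them may be split among the 3 genes.

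**Figure D4:**
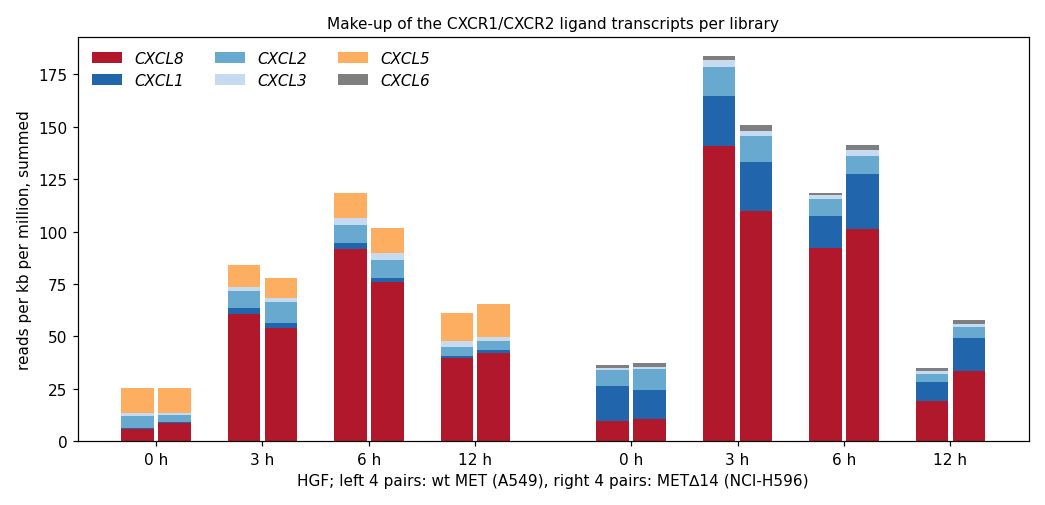
Summed RPKM of the 6 CXC ligands, 1 stacked bar per library with both replicates side by side, by hours of HGF and line. The CXCL8 segment (red) makes up 22.2% to 33.1% of the bars at 0 h and 69.3% to 77.7% at 3 and 6 h, CXCL5 (orange) appears with wt MET only, and CXCL6 (grey) with MET∆14 only.

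Among the IL6-type cytokines, IL11 had the highest level per length with wt MET, at a mean of 119 RPKM at 0 h and 894 at 6 h, beside 44.1 and 98.9 for LIF and at most 0.173 for IL6. IL11, a cytokine of stromal and epithelial cells, went from 284 and 281 CPM at 0 h to 1159 and 1213 at 3 h, 1913 and 2337 at 6 h and 841 and 842 at 12 h. The levels at each time lay clear of the others. The log2 changes of IL11 were 2.07 (SE 0.13, adjusted p = 5.25e-08), 2.91 (SE 0.13, adjusted p = 1.67e-09) and 1.58 (SE 0.13, adjusted p = 8.11e-07). With MET∆14, IL11 was at 2.48 and 3.33 CPM at 0 h, 8.39 and 10.1 at 3 h, 3.29 and 5.14 at 6 h and 4.93 and 4.26 at 12 h. It rose at 3 h (1.66, SE 0.21, adjusted p = 2.15e-05), lay close to the threshold at 6 h (0.57, adjusted p = 0.0516, and 0.0202 under DESeq2) and rose at 12 h (0.66, adjusted p = 0.0361). The IL11 call at 12 h was lost without the MET∆14 0 h replicate 1 (0.223) or the 12 h replicate 1 (0.53, adjusted p = 0.247), and kept without the 12 h replicate 2 (0.72, 0.0461).

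LIF, which acts on LIFR and gp130, rose with wt MET from 158 and 183 CPM to 298 and 282, 365 and 401, and 251 and 247 at 3, 6 and 12 h. The log2 changes of LIF were 0.76 (SE 0.11), 1.17 (SE 0.11) and 0.54 (SE 0.11), with adjusted p = 0.000147, 1.59e-06 and 0.00108. With MET∆14, LIF rose from 4.56 and 4.67 CPM to 49.2 and 47.3 at 3 h, and was at 10.03 and 11.5 at 6 h and 6.30 and 4.08 at 12 h. That 3 h rise was 3.38 on the log2 scale (SE 0.14, adjusted p = 1.81e-09), the 6 h rise 1.23 (SE 0.16, adjusted p = 1.85e-05), and the 12 h value 0.22 (95% interval -0.17 to 0.61). The MET∆14 level of LIF at 3 h remained below every wt MET library, 0 h included. Of the LIF exon bases, 4.37% overlap antisense genes, which cannot be told apart without strand.

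IL6, an inducer of the acute phase response, had more than 4 counts in MET∆14 libraries only, at 7.17 and 7.90 CPM at 0 h, 19.7 and 16.02 at 3 h, 8.16 and 10.5 at 6 h and 2.63 and 3.801 at 12 h. It rose at 3 h (log2 change 1.24, SE 0.22, adjusted p = 0.000456) and at 12 h was below both 0 h libraries, having fallen by 1.27 on the log2 scale (SE 0.25, adjusted p = 0.00111). Without the 12 h replicate 1 or 2 the IL6 fall was 0.99 and 1.53. The 6 h change was 0.32 (95% interval -0.15 to 0.79). Of the IL6 exon bases, 9.91% overlap genes on the other strand.

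Between 3 h and 12 h most of these transcripts came down with MET∆14. In that line, 7 of the 10 genes fell from 3 h to 12 h and 0 rose, beside 14.6% of all genes lower and 13.3% higher. The log2 change was -2.28 for CXCL8 (SE 0.22, adjusted p = 1.23e-05), -2.51 for IL6 (SE 0.24), -3.16 for LIF (SE 0.14) and -3.85 for CCL20 (SE 0.56). Without the 12 h replicate 1 or 2 these were -1.90 and -2.74 for CXCL8, -2.23 and -2.77 for IL6, -3.56 and -2.95 for LIF, and -4.68 and -3.52 for CCL20. The change was -0.96 for CXCL1, -1.63 for CXCL2 and -1.004 for IL11, and CXCL1 lost its call without the 12 h replicate 1 (log2 change -0.62, adjusted p = 0.116) or the 3 h replicate 1 (0.0578). Without the 12 h replicate 1 or 2, CXCL2 changed by -1.31 and -1.93 and IL11 by -1.14 and -0.94, and CXCL1 by -1.34 without replicate 2. CD14, the only one of 7 blood cell markers that was tested, moved the same way, by -1.32 from 3 h to 12 h (SE 0.20, adjusted p = 0.000241) and by -1.49 from 0 h to 12 h, and PECAM1, an endothelial marker with 7 to 37 counts, changed by -1.68 from 0 h to 12 h (adjusted p = 0.0125). From 3 h to 12 h none of the 4 fibroblast and endothelial markers was called, PECAM1, COL1A1 (-0.17) and COL3A1 (0.18) included. The part of any of these markers in the result was not tested. With wt MET, 2 fell (CXCL2 and IL11) and 1 rose (CXCL5), beside 11.1% of all genes lower and 8.83% higher. The wt MET changes from 3 h to 12 h were -1.15 for CXCL2 (adjusted p = 0.00263), -0.49 for IL11 (0.0117) and 0.47 for CXCL5 (0.0201). IL11 lost its call without either wt MET 12 h library or the 3 h replicate 2 (0.0642 to 0.0693), and CXCL5 without the 12 h replicate 2 or either 3 h library (0.0816 to 0.208). The wt MET count was 6 rather than 3 where that line was fitted alone, with CXCL1, CXCL8 and LIF added as lower.

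The difference of the response between the lines was tested directly, as the change with MET∆14 minus that with wt MET. Over all times the response differed for 4 of the 10 genes, beside a similar share of all genes, 37.6%. These were CXCL8 (adjusted p = 0.00309), CCL20 (0.00739), IL11 (2.30e-05) and LIF (6.90e-08). At 3 h it was larger with MET∆14 for 2 genes and smaller for 0 (8.93% and 8.47% of all genes). At 6 h it was larger for 0 and smaller for 2 (16.4% and 13.8%), and at 12 h larger for 0 and smaller for 2 (13.0% and 11.0%).

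LIF had the clearest difference, at 3 h, of 2.62 (log2, SE 0.18, adjusted p = 2.41e-07), with 0.07 at 6 h (95% interval -0.34 to 0.47) and -0.32 at 12 h (-0.77 to 0.12). CCL20, which passed the filter through the MET∆14 3 h group, differed by 3.60 at 3 h (SE 0.95, adjusted p = 0.0162). The CCL20 call was lost without the wt MET 0 h replicate 1 (2.62), the wt MET 3 h replicate 1 (2.94) or the MET∆14 0 h replicate 2 (3.08). IL11 rose less with MET∆14, by -2.34 at 6 h (SE 0.27, adjusted p = 1.38e-05) and -0.92 at 12 h (SE 0.27, adjusted p = 0.0211), with -0.41 at 3 h (95% interval -0.94 to 0.13). Without the MET∆14 0 h replicate 2 the 12 h difference of IL11 was -0.66 (adjusted p = 0.214), and without the MET∆14 12 h replicate 1 or 2 it was -1.05 and -0.84 (0.027 and 0.0389).

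CXCL8 differed at 12 h, by -1.18 (SE 0.35, adjusted p = 0.0249), whereas at 3 h and 6 h its differences were 0.62 (95% interval -0.12 to 1.35) and -0.31 (-1.04 to 0.42). Leaving out the wt MET 0 h replicate 1, either wt MET 12 h library, either MET∆14 0 h library or the MET∆14 12 h replicate 1 ended this CXCL8 call (adjusted p = 0.053 to 0.108). Without the MET∆14 12 h replicate 1 or 2 the CXCL8 difference was -0.80 and -1.63. CXCL2 differed by -1.04 at 6 h (SE 0.31, adjusted p = 0.0202), and lost that call without the wt MET 0 h replicate 2, the wt MET 6 h replicate 1, the MET∆14 0 h replicate 2 or the MET∆14 6 h replicate 1 (0.0503 to 0.105). CXCL1 missed the threshold at each time (-1.31, -1.29 and -1.02), with 95% intervals of -2.52 to -0.10 at 3 h, -2.49 to -0.08 at 6 h and -2.34 to 0.31 at 12 h. The CXCL1 difference passed at 6 h under DESeq2 (adjusted p = 0.0484), without the MET∆14 6 h replicate 2 (0.02) and without a filter (0.00287), and at 3 h without a filter (0.00352).

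**Figure D5:**
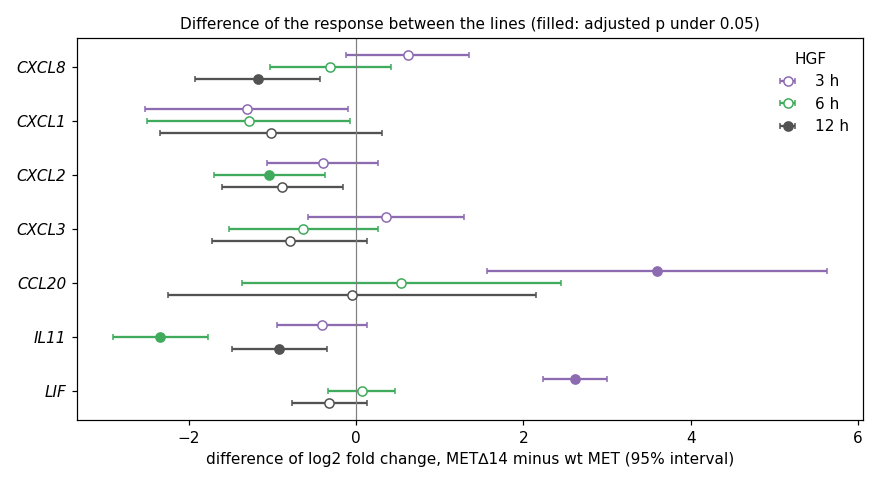
Difference of the log2 fold change, MET∆14 minus wt MET, at 3, 6 and 12 h with 95% intervals, for the 7 genes with counts in both lines; filled points have an adjusted p under 0.05. LIF and CCL20 lie right of 0 at 3 h, and IL11 lies left of it at 6 h (-2.34) and 12 h (-0.92).

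Of 8 receptor genes, CXCR1, CXCR2 and CCR6 were too low to be tested in either line. Among the 5 tested, 2 rose and 1 fell at 3 h with wt MET, and 4 rose and 1 fell at both 6 and 12 h, beside 10.3%, 16.4% and 16.9% of all genes higher and 7.16%, 17.8% and 18.2% lower at the 3 times. With MET∆14, 3 rose at 3 h, 4 rose and 1 fell at 6 h, and 4 rose at 12 h, beside 15.5%, 21.6% and 18.3% of all genes higher and 16.1%, 22.5% and 20.1% lower. IL6ST, the gp130 chain, rose by 1.25 on the log2 scale with wt MET at 6 h (SE 0.09, adjusted p = 1.08e-07). LIFR rose with MET∆14 at 6 h (0.94, SE 0.12, adjusted p = 1.51e-05), OSMR, the oncostatin M receptor chain, at 12 h (0.73, adjusted p = 2.87e-05), and LIFR with wt MET at 12 h (0.84, adjusted p = 0.00012). IL11RA fell, by 0.95 with wt MET at 12 h and by 0.64 with MET∆14 at 6 h.

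Other cytokine genes were few. Of 6 further IL6-type cytokines 4 were tested, and CLCF1, cardiotrophin-like cytokine factor 1, rose at 3 h by 0.97 with wt MET (SE 0.13, adjusted p = 0.00014) and by 1.70 with MET∆14 (SE 0.16, adjusted p = 1.33e-06). EBI3, an IL27 subunit, fell with wt MET at 6 h (log2 change -1.46, adjusted p = 0.0413), from 9 to 11 counts per library at 0 h to between 3 and 5. CTF1, cardiotrophin 1, fell with MET∆14 at 12 h (-1.08, adjusted p = 0.049), from 30 to 40 counts per library at 0 h to between 10 and 17. Both calls rest on few counts. Of 20 other chemokines and inflammatory cytokines 10 were tested, and with MET∆14 3 rose and 0 fell at 3 h, 3 rose and 2 fell at 6 h, and 1 rose and 4 fell at 12 h, with the same shares of all genes (15.5%, 21.6% and 18.3% higher, 16.1%, 22.5% and 20.1% lower). Those that rose included IL1B (2.20, SE 0.15) and IL1A (2.02, SE 0.15) at 3 h, which encode interleukin 1, and CSF3 (3.59, SE 0.32) at 6 h, which encodes the granulocyte growth factor G-CSF. IL1B and CSF3 had at most 1 count in every wt MET library, as did CXCL10, CXCL14 and CCL5, so no call was possible for these there. IL1A had 2 to 7 counts in the wt MET libraries. With wt MET the only call in that list against 0 h was CSF1, which fell by 0.58 at 6 h (adjusted p = 0.00759). Of all genes with wt MET, 10.3%, 16.4% and 16.9% were higher and 7.16%, 17.8% and 18.2% lower at 3, 6 and 12 h.

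The 15 regulators listed, genes of NF-kappaB, AP-1, C/EBP and mRNA decay factors, were all tested. With wt MET, 13, 12 and 9 of them rose at 3, 6 and 12 h and 0 fell, beside 10.3%, 16.4% and 16.9% of all genes higher and 7.16%, 17.8% and 18.2% lower. With MET∆14, 10 rose and 1 fell at 3 h, 8 rose and 4 fell at 6 h, and 3 rose and 6 fell at 12 h, beside 15.5%, 21.6% and 18.3% of all genes higher and 16.1%, 22.5% and 20.1% lower. The median log2 change at 3 h was 1.09 with wt MET and 0.50 with MET∆14, beside -0.04 and -0.05 over all genes. FOSL1, an AP-1 subunit, rose by 3.04 with MET∆14 at 3 h (SE 0.15, adjusted p = 5.39e-09) and by 1.25 with wt MET. The mean FOSL1 level with MET∆14 at 3 h, 401 CPM, stayed below the 1075 CPM with wt MET at 0 h. TNFAIP3, a brake on NF-kappaB, rose by 2.05 with wt MET and 2.01 with MET∆14 at 6 h. ZFP36, which promotes decay of AU-rich cytokine mRNAs, rose by 2.10 with wt MET at 3 h (SE 0.09, adjusted p = 3.79e-10) and by 0.30 with MET∆14, a difference of -1.80 that passed the test. REL, an NF-kappaB subunit, fell by 1.66 with MET∆14 at 6 h (SE 0.19, adjusted p = 6.58e-06) and rose by 1.28 with wt MET. ATF3, a stress-induced factor of the ATF/CREB family, rose by 1.59 with wt MET at 3 h (SE 0.16, adjusted p = 1.13e-05).

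The genes whose log2 CPM followed CXCL8 most closely over the 8 libraries of a line were ABCF1 (Pearson's r 0.998), DIABLO, AQR, LATS2 and KDM5A with wt MET, and PROSER2 (0.997), CCDC71L, YWHAG, SERPINB5 and KPNA4 with MET∆14. For LIF they were DNAH17 (0.991), AHRR, SLC26A6, IRAK2 and ACTN1 with wt MET, and with MET∆14 they included ADAMTS1 (0.984), LONRF1, C16orf72 and PRAG1. These are among the closest of all genes whose mean log2 CPM was 3 or more, the libraries share groups and times, and no test was made.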

How the data were processed

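RNA from 16 libraries was sequenced. Per the submitters' processing notes the tools were STAR 2.5.0 and RSEM 1.3.2 on hg38, and adapters were trimmed by the authors. The authors deposited raw counts per gene as whole numbers. What RSEM was used for, which annotation was counted and whether strand was used are not given in the sources used here, so the counts may be rounded estimates. The count table writes the wt MET line name differently from the labels, and its columns were matched by what follows that name.

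Tests on the deposited counts used edgeR 4.0.16 in R 4.3.3 (with limma 3.58.1). The filter was filterByExpr with a minimum count of 10 and a total of 15, scaling was by TMM, and the fit was a robust quasi-likelihood model with 1 coefficient per line and time over all libraries. Benjamini-Hochberg adjustment ran over all genes tested (threshold 0.05), and an additive model, also in edgeR, used the terms that the study's figure legend gives for its DESeq2 fit. Where a group had at most 3 counts in every library, no fitted fold change is printed, but counts of calls include such genes. The medians over the 10 genes leave out those with at most 3 counts in every library of both groups compared. Intervals are 95%, and those from counts cover counting error only. CPM used TMM-scaled library sizes and RPKM the length of the MANE Select transcript in GENCODE. Log2 CPM for likeness used a prior count of 2. DESeq2 1.42.0 without independent filtering was an alternative, beside other size factors, filters, a 2-fold limit, a replicate block, each line alone and each library left out.

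Members and gene lists were chosen with earlier results of these data known. The named genes were all members, up to 3 called genes per list and line with the largest absolute log2 change, and the 5 genes most like CXCL8 and LIF in each line, of which 1 is not reported here. REL and ATF3 belong to that rule, and the marker lists were used as checks. The labels call the replicates biological, without saying whether they came from separate cultures, so p-values measure the spread between these samples. Replicates of each group differed by more than sampling noise. The scripts were tested in 5 simulations of counts for 15067 genes, 200 of them changed 2-fold at 3 h with MET∆14. For that comparison edgeR found a median of 85.5% of the changed genes with 8 to 18 false calls, and for the difference between the lines at 3 h 62% with 5 to 9. The additive model, which assumes the same time effect in both lines, found a median of 3% of them (1.5% to 7.5%) with 0 to 7 false calls. Figures were drawn with matplotlib 3.10.9.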

Additional observations from a re-analysis of the deposited data

Results flagged for a closer look

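The response to HGF differed between the lines over all times for 4 of the 10 genes, by edgeR's quasi-likelihood F test of the 3 differences with Benjamini-Hochberg adjustment. These were LIF (adjusted p = 6.90e-08), IL11 (2.30e-05), CXCL8 (0.00309) and CCL20 (0.00739). The share of all genes with such a difference was 37.6%, and each form of MET is 1 cell line, so the form of MET and the line cannot be told apart. No group had enough libraries for a check of single outlying samples.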

How the results depend on the processing

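The limits come mainly from 2 libraries per group and low counts. Leaving out 1 library in turn, the number of genes called against 0 h was 3 to 5 at 3 h, 4 to 6 at 6 h and 3 to 4 at 12 h with wt MET, and 6 to 8, 2 to 5 and 3 to 5 with MET∆14. From 3 h to 12 h it was 1 to 6 with wt MET and 6 to 7 with MET∆14. For the difference between the lines it was 1 to 2 at 3 h, 1 to 3 at 6 h, 0 to 3 at 12 h and 3 to 5 at any time, for the lines at 0 h 7 to 8, and for the additive time effect 7 to 8.

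A 2-fold limit left 3 calls at 3 h with wt MET, 1 from 3 h to 12 h with wt MET and 1 for the difference at 12 h. Without a filter the counts were 5 at 6 h with MET∆14, 5 from 3 h to 12 h with wt MET and 4 for the difference at 3 h, which was 1 with at least 10 counts in every library. With wt MET fitted alone, 6 genes were called from 3 h to 12 h. DESeq2, its size factors and the replicate block moved no count of members by more than 1.5 times. Over all genes, 2629, 5153 and 5284 were called with wt MET at 3, 6 and 12 h against 0 h. Each of these counts fell where a library of that comparison was left out. Each rose where a MET∆14 12 h library, which belongs to none of these comparisons, was left out. With 1 library left out, the counts for 3 h to 12 h in both lines and for the difference at 3 h moved both ways. With MET∆14 at 3 and 12 h against 0 h, the lowest such counts lay below those with all libraries (4769 and 5774).

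Signs turned only for values below the threshold. With 1 library left out, the log2 changes ran from -0.48 to 0.24 for CXCL2 with wt MET at 12 h and from -0.31 to 0.14 with MET∆14 at 6 h, from -0.72 to 0.011 for CXCL1 with MET∆14 at 12 h, from -0.54 to 0.47 and -0.34 to 0.33 for CXCL6 with MET∆14 at 6 and 12 h, from -1.22 to 0.18 for CCL20 and from -0.18 to 0.43 for LIF with MET∆14 at 12 h. The LIF difference at 6 h ran from -0.077 to 0.17, and was -0.0017 with at least 10 counts in every library. The cause was not tested.

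Same-numbered replicates did not deviate together (correlations from -0.159 to 0.0350), and the main tests took them as unpaired. This check cannot tell whether same-numbered samples shared a culture or a day. With the replicate block, 7 genes were called at 3 h and 4 at 6 h with MET∆14, and the CXCL3 difference at 0 h was -0.0064.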
